A study of Arabidopsis thaliana with 9 samples.

Results

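Which RNAs of a plant nucleus are seen by a droplet method that reads the 3′ ends of polyadenylated RNA, and which by a plate method that also captures RNA without a poly(A) tail, was compared in the whole hypocotyl of Arabidopsis thaliana. The comparison rests on 4 of the 9 libraries of the series and on the 38115 gene rows that both count tables list. In the 10x all hypocotyl library, 2081 barcodes had more than 1200 and fewer than 10000 counts and were kept as nuclei. On the VASA all hypocotyl plates 1, 2 and 3, 293, 232 and 181 wells had more than 1200 and fewer than 15000 counts and were kept. Together these were 2787 of the 5175 nuclei that passed the limits in all 9 libraries. Counts of the kept nuclei were summed per library or plate and expressed as CPM, each gene's share of the summed counts scaled to 1000000, with the rows of the ERCC spike-in RNAs left out.

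The 10x all hypocotyl nuclei and the VASA all hypocotyl nuclei came from plants of the same line, PXY:H4-GFP;;SMXL5:H2B-RFP in the Col-0 background, which carries nuclear reporters driven by the promoters of the cambium genes PXY and SMXL5. All plants were 4 weeks old and had been grown with 10 h of light and 14 h of darkness. Each method used a separate preparation of about 100 hypocotyls, and the 3 plates were filled from 1 preparation. Plates are therefore not separate plants, 10x has 1 library, and the method cannot be told apart from the preparation. Neither set was sorted on the reporters, and the RNA of neither reporter passed the test described below. H4GFP had 77.9 CPM in the 10x library, against 77.9, 111 and 79.2 CPM on plates 1, 2 and 3, and H2BRFP had 44.9 CPM in the 10x library, against 49.9, 44.2 and 76.6 CPM on the plates.

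Most messenger RNAs and many long non-coding RNAs of plants are made by RNA polymerase II and carry a poly(A) tail, to which the oligo(dT) primer of a 10x 3′ library anneals. Spliceosomal snRNAs, most snoRNAs, ribosomal RNAs and transfer RNAs end without such a tail, and plant snoRNAs guide the chemical modification and cutting of ribosomal RNA. VASA-seq breaks RNA into fragments, adds a poly(A) tail to every fragment, removes ribosomal RNA sequences with RNase H and counts unique fragments, so that a long RNA can give several counts.

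The RNAs on which the comparison turned are short, and a few are shown here because they carry the largest differences in each direction. Sequences are those of RefSeq for the assembly TAIR10.1, written 5′ to 3′ on the strand of the gene. U1.4 (chr5:8972808-8972971, minus strand) is a copy of the U1 snRNA, which pairs with the 5′ splice site. U2.14 (chr1:4842275-4842469, plus strand) is a copy of the U2 snRNA, which pairs with the branch point. U4.2 (chr3:2178191-2178343, minus strand) belongs to the U4 snRNA, which escorts U6 into the spliceosome. They had 1, 1 and 3 counts in the 10x nuclei, against 14047, 18032 and 30963 counts over the plates. U4.2 was chosen after its values were seen. Capitals mark matches to ATTTNTG, a heptamer like the site at which Sm proteins bind snRNA.
U1.4: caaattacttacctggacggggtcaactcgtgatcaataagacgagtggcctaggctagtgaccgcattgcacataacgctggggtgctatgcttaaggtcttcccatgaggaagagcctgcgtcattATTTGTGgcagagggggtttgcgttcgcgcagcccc
U2.14: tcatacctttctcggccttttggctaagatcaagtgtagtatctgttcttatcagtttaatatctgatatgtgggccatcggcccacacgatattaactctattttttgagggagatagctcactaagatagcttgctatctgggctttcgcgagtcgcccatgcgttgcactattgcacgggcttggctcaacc
U4.2: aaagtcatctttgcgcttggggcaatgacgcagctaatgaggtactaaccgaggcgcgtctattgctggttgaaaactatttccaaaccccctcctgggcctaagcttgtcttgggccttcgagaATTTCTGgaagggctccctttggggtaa

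The letters ATTTNTG, searched on the sense strand, occurred in 21 of the 61 snRNA genes of 90 to 250 bases (34.4%), and in the first 150 bases of 8.50% of lncRNA genes and 7.77% of pseudogenes. U6 snRNA forms the catalytic core of the spliceosome and is made by RNA polymerase III, and its family differed least between the methods. The next sequence is that of the 24-base row U6.11p (chr5:3522144-3522167, minus strand), which was counted in the 10x library only. It holds neither the heptamer nor a run of 4 or more A.
U6.11p: agtcccttcggggacatccgataa

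Among the snoRNAs, AT1G04527 (chr1:2111064-2111147, minus strand) had no count in the 10x nuclei, and AT2G04965 (chr2:2185022-2185087, minus strand) was chosen after its values were seen, as one of the most abundant on the plates. Capitals mark TGATGA within the first 15 bases and CTGA within the last 15 bases, the letters of boxes C and D, which define the snoRNAs that guide 2′-O-methylation. AT2G04965 holds CTGA alone.
AT1G04527: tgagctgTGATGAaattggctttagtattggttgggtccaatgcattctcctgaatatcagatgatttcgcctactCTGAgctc
AT2G04965: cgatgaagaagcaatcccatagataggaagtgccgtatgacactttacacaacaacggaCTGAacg

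Primary transcripts of miRNA genes went in both directions. MIR396a (chr2:4142323-4142473, minus strand) and MIR159b (chr1:6220646-6220841, plus strand) had the largest ratios of 10x to plates among called rows of their class with at least 20 CPM, and MIR4228 (chr1:28889375-28889532, plus strand) the smallest. Capitals mark the mature miRNAs within each hairpin.
MIR396a: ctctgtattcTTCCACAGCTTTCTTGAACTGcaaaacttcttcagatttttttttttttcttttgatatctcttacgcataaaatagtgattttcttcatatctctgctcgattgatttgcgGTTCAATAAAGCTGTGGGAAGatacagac
MIR159b: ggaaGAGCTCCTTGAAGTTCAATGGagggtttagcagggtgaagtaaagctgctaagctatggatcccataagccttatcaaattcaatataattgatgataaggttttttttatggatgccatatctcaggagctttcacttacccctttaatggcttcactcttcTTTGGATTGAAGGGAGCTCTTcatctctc
MIR4228: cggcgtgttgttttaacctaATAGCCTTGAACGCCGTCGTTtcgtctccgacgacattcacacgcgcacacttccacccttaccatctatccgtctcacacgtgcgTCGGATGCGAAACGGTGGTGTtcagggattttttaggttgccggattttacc

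The 10x nuclei gave 4607519 counts in all, 21.3% of the 21650313 counts of that library, with a median of 1852 counts and 1225 genes per nucleus. The plates gave 1745095, 1424200 and 1148888 counts, with medians of 5309, 5605.5 and 6059 counts per nucleus. The 10x counts and the pooled plate counts, 4318183, were thus close in number. The 10x nuclei held counts in 26799 gene rows, and the plates in 26307, 27637 and 23695 rows. Of all rows, 25503 had a count by both methods, 1296 in the 10x nuclei alone and 5290 on the plates alone. With each nucleus thinned to 1200 counts, the median number of genes was 884 per nucleus in the 10x library, against 852, 878.5 and 828 on the plates.

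Protein-coding genes took 94.6% of the counts of the 10x library, against 81.3%, 83.7% and 77.9% on plates 1, 2 and 3 (mean 81.0% ± 2.90, SD, n = 3). Small nuclear and small nucleolar RNAs made up most of the gap. The 82 snRNA rows held 0.0143% of 10x counts (661 counts, exact 95% binomial interval 0.0133% to 0.0155%), against 4.44%, 3.09% and 5.36% on the plates, so that the mean share was 299-fold higher on the plates. The 287 snoRNA rows held 0.0587% of 10x counts (interval 0.0565% to 0.0610%), against 3.66%, 3.69% and 6.47% on the plates, a 78.4-fold difference. The highest of both shares was that of plate 3, and each plate lay far above the 10x value. Intervals cover counting error only.

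Mitochondrial rows and ribosomal RNA followed. Mitochondrial genes held 0.295% of 10x counts, against 2.30%, 1.80% and 1.69% on the plates, and the 4 nuclear rRNA rows 0.124% of 10x counts, against 1.44%, 1.38% and 1.35%. The mean plate shares were 6.54-fold and 11.2-fold the 10x values, with the plates close to each other in spite of the depletion of rRNA. The 11.2-fold value leaves out AT3G06355, a row beside an rRNA gene that was counted as lncRNA. AT3G06355 had 13382 CPM in the 10x library, against 9295, 8060 and 7609 CPM on the plates. Counted as rRNA, it would make the rRNA fold far smaller. Chloroplast genes held 0.328% of 10x counts, against 0.763%, 0.633% and 0.511%. In all 906201 barcodes of the 10x library, the chloroplast share was instead above the mean of the plates, by 0.52 on the log2 scale, so the order of this class depended on the barcodes taken.

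**Figure D1:**
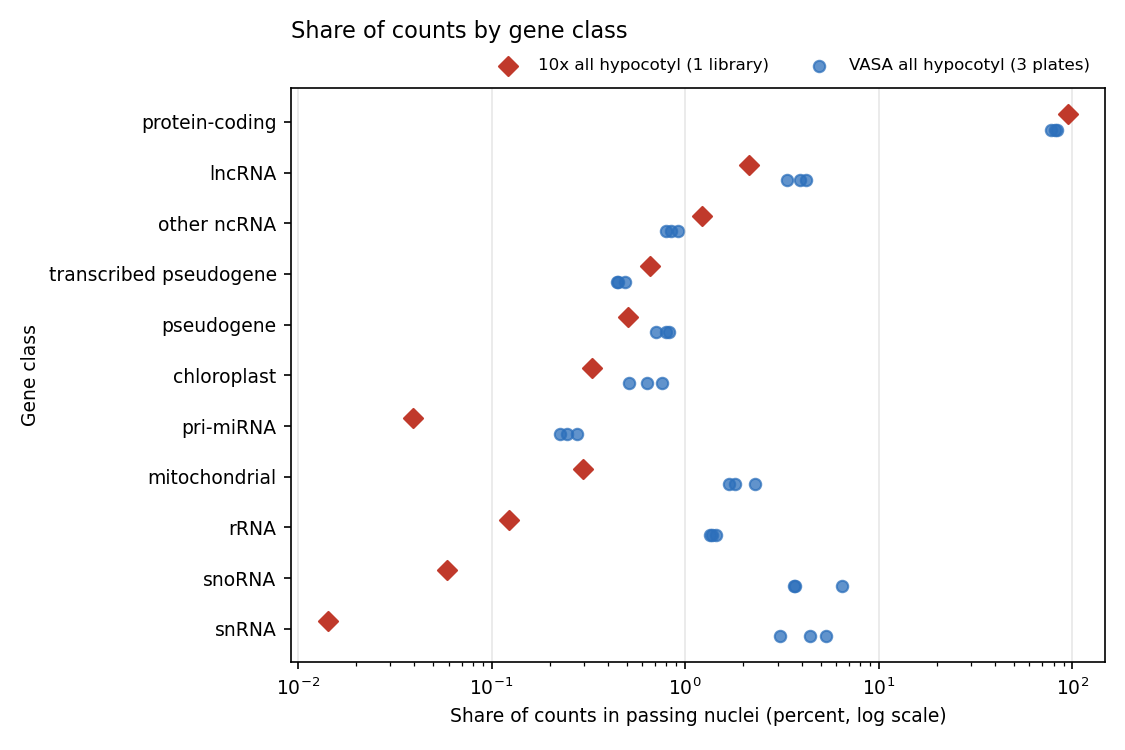
Percent of counts in passing nuclei for 11 gene classes (log axis), as a diamond for the 10x all hypocotyl library and circles for the 3 VASA all hypocotyl plates. The diamond lies left of all plates by the widest margin for snRNA (0.0143%, against 3.09% to 5.36%) and snoRNA, and right of them for protein-coding genes, other ncRNA and transcribed pseudogenes.

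Not every class without coding potential was lower in the 10x library. The 221 rows that RefSeq lists as other ncRNA held 1.23% of 10x counts, against 0.792%, 0.849% and 0.922% on the plates, and transcribed pseudogenes 0.656% of 10x counts, against 0.446%, 0.487% and 0.452%. Long non-coding RNAs held 2.14% of 10x counts, against 3.90%, 3.35% and 4.23%. The 625 tRNA rows were near 0 by both methods, with 0.00540% of 10x counts, against 0.00556%, 0.00702% and 0.00618% on the plates. All 427 rows of mature miRNAs were at 0 in the 10x all hypocotyl library and on every VASA plate.

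Rows that lie wholly inside another gene on the same strand were empty by both methods: all 117 such snoRNA rows, 15 snRNA rows, 63 pri-miRNA rows and 17 tRNA rows had 0 counts. Of the 161 snoRNA rows that overlap no other gene on their strand, 5 were at 0 on the plates and 19 in the 10x nuclei. As these nested rows were all at 0 by both methods, such a 0 says nothing of their RNA. The deposited counts are of reads assigned to 1 gene, and whether this emptied the rows was not tested.

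The difference held in single nuclei. Counts in snRNA and snoRNA rows together made up a median of 0.0585% of the counts of a 10x nucleus, against 7.43%, 5.76% and 11.8% of those of a nucleus on plates 1, 2 and 3. The highest 10x nucleus, at 0.600%, lay below the lowest nucleus of any plate, at 0.694%. All plate nuclei held such counts, and 667 of the 2081 10x nuclei held none. When every nucleus was thinned to 1200 counts, the medians were 1 count in the 10x library, against 90, 70.5 and 139 counts on the plates, and 51.7% of 10x nuclei had any, against all of the plate nuclei.

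**Figure D2:**
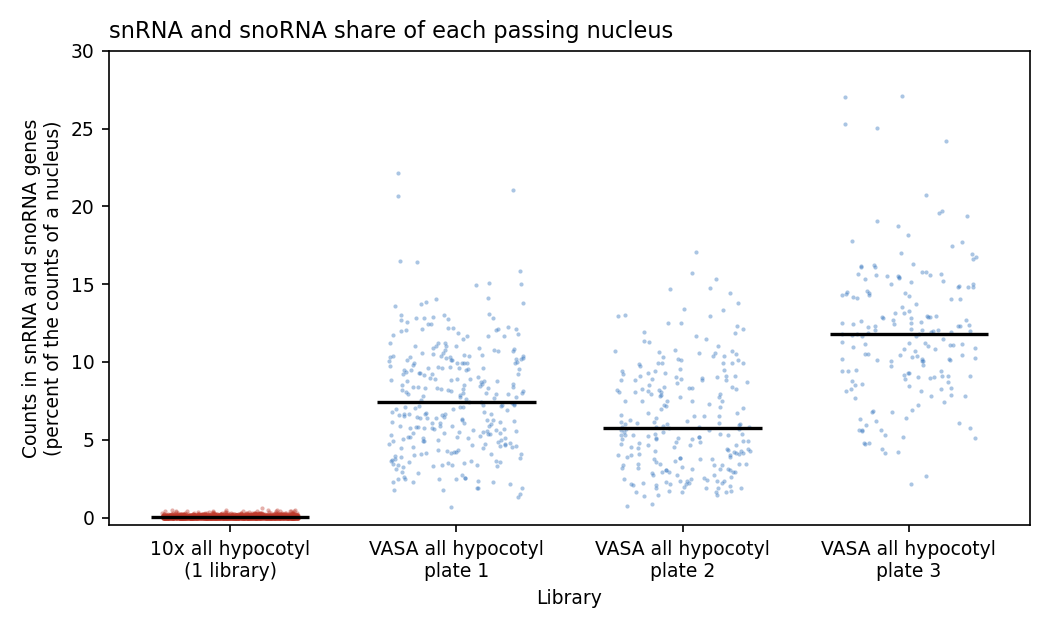
Share of snRNA and snoRNA counts in each passing nucleus (percent of its counts), 1 point per nucleus of the 10x library and of the 3 VASA plates, with a line at each median. The 2081 10x nuclei lie between 0 and 0.600%, under all 706 plate nuclei, whose medians are 7.43%, 5.76% and 11.8%.

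RNA outside nuclei gives a background for these shares. Barcodes of the 10x library with 1 to 100 counts, which hold mostly free RNA, had 0.00619% of their counts in snRNA and 0.0384% in snoRNA rows, below the nuclei of that library. The 6 wells per plate that received no nucleus held 1827 to 2056 counts per plate, of which 2.97%, 2.34% and 6.02% were snRNA. Their snRNA shares were below those of the nuclei on plates 1 and 2 and above those of the nuclei on plate 3.

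A gene-by-gene comparison used edgeR's quasi-likelihood test on the summed counts, with TMM scaling and Benjamini-Hochberg adjustment, and a gene was called at an adjusted p below 0.05 and a difference of at least 2-fold. Since 10x has 1 library, the test assumes that it varies as the plates do, and its p-values compare these libraries, not the methods in general. Of 18499 genes tested, 4927 (26.6%) were called: 2677 (14.5%) were higher and 2250 (12.2%) lower in the 10x library. Without TMM, 3463 were higher and 1571 lower, so that 68.8% instead of 54.3% of calls were higher in 10x, and the median log2 ratio over all genes moved to 0.22 from 0.01. Log2 ratios below are those of the TMM fit.

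Of 36 snRNA rows tested, 30 were lower and 1 was higher in the 10x library, with a median log2 ratio of −9.13. Of 144 snoRNA rows, 134 were lower and 0 higher, with a median of −6.14, beside medians of 0.03 over 17463 protein-coding genes and 0.01 over all genes. All 3 rRNA rows tested were lower. For comparison, 2493 protein-coding genes were higher and 1897 lower, and DESeq2 turned this balance, with 1335 higher and 1470 lower. Among other ncRNA, 48 of 96 rows were higher and 6 lower (median 1.47), and among pri-miRNAs 10 of 17 were higher and 3 lower (median 3.42). Rows pass the filter on low counts if either method sees them well, so these counts describe rows tested and not whole classes.

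Within the spliceosome, the snRNA families differed in size of effect. Summed over its 14 genes, U1 had 2.82 CPM in the 10x library, against 12199, 7260 and 13811 CPM on plates 1, 2 and 3. U4 had 1.74 CPM in the 10x library, against 9955, 6232 and 11903 CPM. U2 had 24.1 CPM, against 18399, 14862 and 21784 CPM. The plates were 3931-fold higher for U1, 5393-fold for U4 and 762-fold for U2. U5, which aligns the exons for ligation, had 6.29 CPM in the 10x library, against 359, 464 and 1884 CPM, with plate 3 several times above the other plates.

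The minor spliceosome, which removes a rare class of introns, showed the same order. U12, its counterpart of U2, chosen after its values were seen, had 11.3 CPM in the 10x library, against 3034, 1763 and 3409 CPM on the plates (log2 ratio −8.15 ± 0.60, SE, edgeR adjusted p = 2.48e-05). U4atac had 1.30 CPM in the 10x library, against 364, 187 and 500 CPM, and the U6atac rows had 0 counts in the 10x nuclei and 3 over the plates. U6 overlapped between the methods: it had 95.9 CPM in the 10x library, against 64.2, 86.4 and 285 CPM on the plates. Without the row U6.11p the U6 sum was 53.4 CPM in the 10x library, below each plate.

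Copies of 1 family are nearly identical, and the split of reads among them is uncertain, so single copies are given as examples. U2.6 had 0 counts in the 10x nuclei, against 2598, 1701 and 3267 CPM on the plates (10709 counts), at least 3873-fold lower when 3 counts are taken as the limit for the 10x library. For U2.14, 1 count in the 10x nuclei (0.217 CPM) stood against 4226, 3785 and 4585 CPM on the plates, a ratio of plates to 10x of 19240 with a 95% counting interval of 3453 to 759990. Every plate was high and the groups were far apart for each of these copies. U1.4 had 0.217 CPM in the 10x library, against 3765, 1922 and 4125 CPM, and U4.2 had 0.651 CPM, against 8012, 4861 and 8755 CPM. U4.7 and U4.5 had no 10x count and were at least 742-fold and 209-fold lower in the 10x library.

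The exception was U6.11p, whose 24 bases are shown above. It had 196 counts in 179 nuclei of the 10x all hypocotyl library (42.5 CPM) and 0 counts on all 3 plates, at least 61.2-fold higher in the 10x library, or 36.5-fold without plate 1, since fewer plate counts then stand behind the 0. It had 0 counts on the 3 VASA cambium plates and also 0 in the passing nuclei of the other 10x libraries, WT and d14, which were counted with other software. Its bases occur at 1 place in TAIR10.1, and the nearest annotated gene, AT5G11080, lies 2141 bases away. Bases 2 to 24 match U6.5 from base 4 of that gene with 1 mismatch. U6.5 had 29 counts in the 10x nuclei and 17 over the plates. What the 10x counts of U6.11p come from was not tested.

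**Figure D3:**
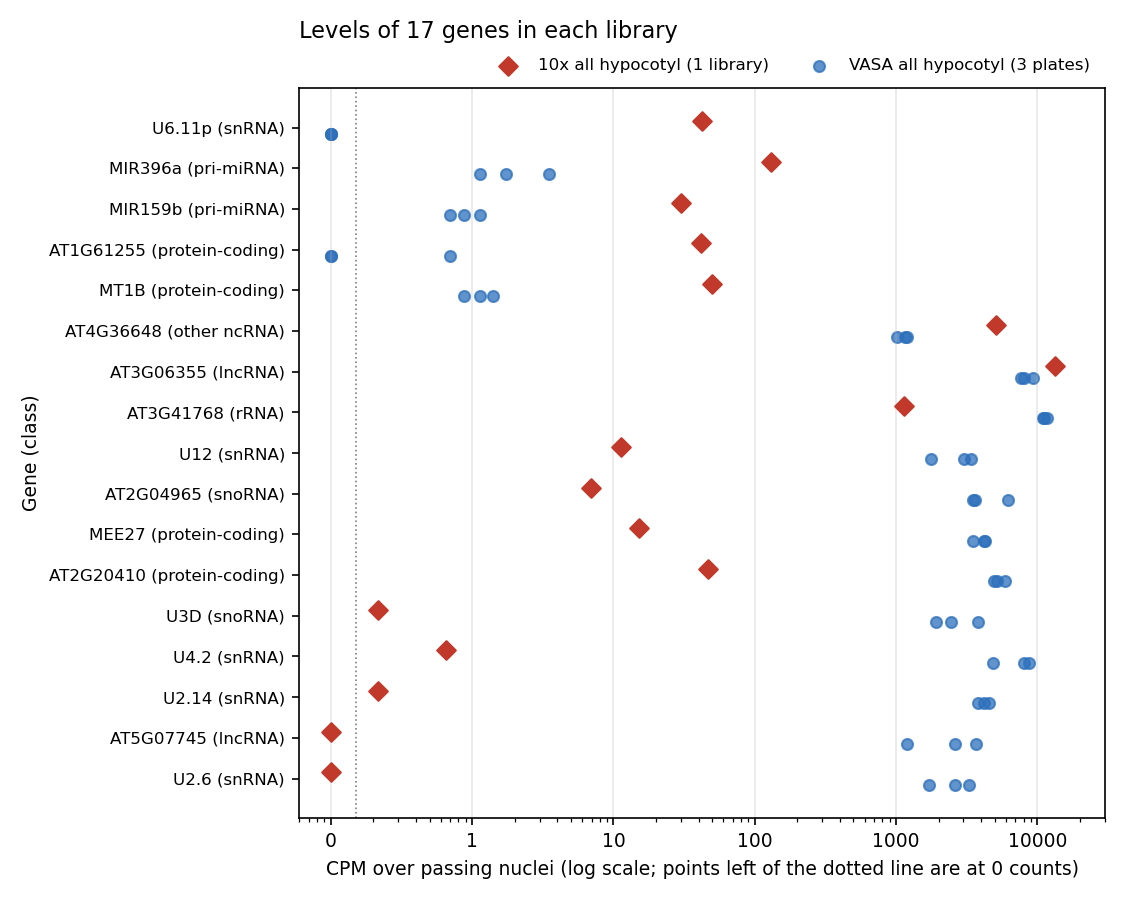
CPM of 17 genes in the 10x all hypocotyl library (diamond) and on the 3 VASA all hypocotyl plates (circles), on a log axis with values of 0 left of the dotted line. U6.11p, MIR396a, MIR159b, AT1G61255 and MT1B lie right of their plates, and U2.6 and AT5G07745 sit at 0 counts in the 10x library with 1196 to 3665 CPM on the plates.

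Among snoRNAs, U3D and U3B, copies of the U3 snoRNA that is needed for the first cuts of the rRNA precursor, each had 0.217 CPM in the 10x library (1 count). On the plates U3D had 2441, 1908 and 3797 CPM and U3B had 2293, 1812 and 3498 CPM. AT2G04965 had 6.95 CPM in the 10x library, against 3622, 3497 and 6158 CPM (log2 ratio −9.54 ± 0.64, SE, edgeR adjusted p = 1.56e-05). AT1G04527 had no count in the 10x nuclei, against 67.6, 93.4 and 279 CPM on the plates, and was at least 225-fold lower, or 124-fold without plate 3. Plate 3 was the highest for all 4. Further examples, chosen after their values were seen, were SNOR111, with 8.03 CPM in the 10x library, against 1113, 1126 and 1450 CPM, and AT1G09867, with 29.1 CPM, against 1712, 1420 and 3229 CPM.

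The box letters did not separate the snoRNAs that differed. Of 208 snoRNA genes of 60 to 130 bases, 112 (53.8%) held both TGATGA and CTGA in the windows given above, against 0 of 625 tRNA genes and 1 of 3559 lncRNA genes over their first 90 bases. Of those with both boxes, 59 of 63 tested were lower in the 10x library (median log2 ratio −5.83), and of those without, 46 of 51 (median −5.51). Genes over 130 bases, which include U3, had 28 of 29 lower and a median of −7.56. Summed, the genes with both boxes had 144 CPM in the 10x library, against 4487, 5670 and 9769 CPM on the plates.

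Copies of snRNA and snoRNA genes also lie inside genes of other classes. All snRNA and snoRNA sequences were searched with blastn against the sense strand of 18195 tested genes of other classes, of which 11.1% were lower in the 10x library. The search found 14 genes that hold a copy over at least 70% of its length where no snRNA or snoRNA gene is annotated. Of these, 8 were lower and 2 higher, with a median log2 ratio of −4.82. Of 72 genes with a copy at an annotated snRNA or snoRNA gene, 15 were lower and 11 higher, with a median of −0.03. Matches over at least 90% left 8 unannotated copies, 6 of them in genes that were lower.

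The lncRNA AT5G07745 was the clearest such case. It had 0 counts in the 10x nuclei, against 2607, 1196 and 3665 CPM on the plates (10464 counts), at least 3823-fold lower in the 10x library. Its bases 154 to 317 (chr5:20996769-20996932, plus strand) are 96.3% identical to U1.2 over 164 aligned bases and are shown for comparison with U1.4, with the heptamer in capitals.
AT5G07745 stretch: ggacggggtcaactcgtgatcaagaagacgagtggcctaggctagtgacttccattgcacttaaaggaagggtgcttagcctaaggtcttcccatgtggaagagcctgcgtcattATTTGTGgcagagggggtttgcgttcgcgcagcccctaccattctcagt

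AT5G07325, another lncRNA, had 0.217 CPM in the 10x library (1 count), against 7729, 4579 and 8405 CPM on the plates, and holds a stretch 97.4% identical to U4.6 over 153 bases. AT2G20410, annotated as an RNA-binding ASCH domain protein, had 46.4 CPM in the 10x library, against 5166, 4963 and 5921 CPM (log2 ratio −7.07 ± 0.38, SE, edgeR adjusted p = 7.38e-06), and its first 192 bases are 95.3% identical to U2.10. PRIN2, which acts in plastid gene expression, had 9.33 CPM in the 10x library, against 1077, 903 and 1560 CPM, with an 88.1% match to U3D over 302 aligned bases. Counts on such genes may belong to the copy or to the rest of the gene, which sums per gene cannot show. LAF3 and MBR1 hold copies of U5.5 and U6.4 and did not pass the test, with log2 ratios of −0.52 and −0.46. AT2G20410, LAF3 and MBR1 were chosen after their values were seen.

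Ribosomal RNA rows were lower in the 10x library by smaller factors. The 18S row AT3G41768 had 1144 CPM in the 10x library, against 11796, 11062 and 11020 CPM on the plates (log2 ratio −3.52 ± 0.29, SE, edgeR adjusted p = 4.07e-05). AT2G01020, annotated in RefSeq as 5S ribosomal RNA, had 88.3 CPM in the 10x library, against 2526, 2616 and 2386 CPM (log2 ratio −5.04 ± 0.30, SE, edgeR adjusted p = 9.70e-06). It lies at chr2:5782-5945, downstream of the 18S row AT2G01010 (chr2:3706-5513) on the same strand, and whether its 5S label is right was not tested. The other 18S row, AT2G01010, had 6.29 CPM, against 109, 75.8 and 89.7 CPM. The plates stayed within a narrow range for each row. An lncRNA row beside the 18S gene, AT3G06355, shares bases with AT3G41979 on the same strand and was chosen after its values were seen. It went the other way without passing the test, with 13382 CPM in the 10x library, against 9295, 8060 and 7609 CPM (log2 ratio 0.47 ± 0.23, SE, edgeR adjusted p = 0.144). Its 61656 counts in the 10x nuclei stand beside 5705 in all 4 rRNA rows, so the rRNA and lncRNA shares depend on its class. With AT3G06355 as rRNA, the 11.2-fold gap in the rRNA share would shrink and the gap in the lncRNA share would widen.

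Primary miRNA transcripts held 0.0392% of 10x counts, against 0.226%, 0.246% and 0.276% on the plates, although 10 of the 17 tested rows were higher in the 10x library. DESeq2 called 5 of the 17 higher and 3 lower. The class sum on the plates came mainly from 2 rows. MIR5642a, which overlaps the lncRNA AT3G06325 next to the 18S rRNA gene, had 36.0 CPM in the 10x library, against 1588, 1807 and 1656 CPM, and MIR4228 had 4.12 CPM, against 601, 544 and 1011 CPM (log2 ratios −5.76 and −7.66). Several rows of conserved miRNAs stood the other way, while MIR159a, chosen after its values were seen, did not pass the test (log2 ratio −0.79). MIR396a, whose miRNA targets growth-regulating factor (GRF) genes, had 130 CPM in the 10x library (598 counts in 364 nuclei), against 1.15, 3.51 and 1.74 CPM on the plates (log2 ratio 5.71 ± 0.35, SE, edgeR adjusted p = 9.76e-06).

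MIR159b, whose miRNA targets GAMYB-like MYB genes, had 30.2 CPM in the 10x library, against 1.15, 0.702 and 0.870 CPM (log2 ratio 4.74). MIR162a, whose miRNA targets DCL1, had 23.7 CPM in the 10x library, against 2.29, 1.40 and 0.870 CPM (log2 ratio 3.63). All 3 plates were low for each of them. MIR169a had 32 counts in 19 nuclei of the 10x library (6.95 CPM) and 0 on every plate, at least 10.0-fold higher in 10x, or 5.96-fold without plate 1. Reads of a primary transcript that fall outside the short annotated hairpin are not counted at these rows, and no pri-miRNA row of the WT and d14 libraries held a count in any barcode.

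Of the 96 tested ncRNAs that RefSeq does not place in a small RNA class, 48 were higher and 6 lower in the 10x library, and DESeq2 called 35 higher and 6 lower. AT4G36648 had 5084 CPM in the 10x library, against 1164, 1187 and 1018 CPM on the plates (log2 ratio 1.96 ± 0.20, SE, edgeR adjusted p = 0.000122), and GUT15 had 2481 CPM, against 859, 1021 and 778 CPM (log2 ratio 1.27). With the WT library in place of the 10x all hypocotyl library, GUT15 turned to a log2 ratio of −0.17. Both were chosen after their values were seen. By the rule for named genes, AT3G15536 had 105 CPM in the 10x library, against 5.73, 3.51 and 4.35 CPM (log2 ratio 4.28), and AT1G18745 had 162 CPM, against 8.60, 11.9 and 14.8 CPM (log2 ratio 3.60). The bases of AT1G18745 include the snoRNA gene AT1G05427 at full identity. The groups did not overlap for any row named here. These rows were picked for their ratios or after their values were seen, and 77.1% of all tested genes lay outside the range of the plates.

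Precursors of trans-acting siRNAs, which are cut by a miRNA and then diced into small RNAs, were higher in every row tested. All 5 TAS rows tested, of 6 in the files, were higher in the 10x library, with a median log2 ratio of 1.83, beside 14.5% higher among all genes. In the other ncRNA class, which includes them, 48 of 96 tested rows were higher, with a median of 1.47. With the WT library in place of the 10x all hypocotyl library, TAS3 turned from a log2 ratio of 1.83 to −0.13. TAS1B had 44.9 CPM in the 10x library, against 5.73, 10.5 and 8.70 CPM (log2 ratio 2.24), and TAS1C had the smallest ratio, 1.37. The few rows of the class that were lower include AT5G06165, with 13.2 CPM in the 10x library, against 2320, 2627 and 2263 CPM (log2 ratio −7.71), whose bases include the snoRNA gene AT5G01195 at full identity, and AT3G61198, with 5.64 CPM, against 667, 553 and 957 CPM (log2 ratio −7.22).

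Long non-coding RNAs had 57 of 339 tested rows higher and 70 lower, with a median log2 ratio of −0.31, beside 14.5% higher and 12.2% lower among all genes. Without TMM 63 were higher and 59 lower, and over all 10x barcodes 40 of 314 were higher and 94 lower. The rows with the largest ratio included AT1G04697, with 41.0 CPM in the 10x library (189 counts in 142 nuclei), against 0, 0 and 0.870 CPM, and AT2G09165, with 55.3 CPM (255 counts in 235 nuclei), against 1.15, 0.702 and 0 CPM. Counts of both were spread over many nuclei. Of the 20 called lncRNAs with the lowest ratios at 20 CPM or more, 9 held a copy of an snRNA or snoRNA. Over all classes searched, 86 of 18195 genes held one, but 17463 of the genes tested were protein-coding, so this is not the share among lncRNAs. The lncRNAs AT5G01775 and AT5G09505 also held a copy and were higher in the 10x library (log2 ratios 2.66 and 2.87).

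Protein-coding genes that were lower in the 10x library began with 4 that had 0 counts in its nuclei. AT2G08986, an uncharacterized gene of 8403 bases with 45 introns, had 0 counts in the 10x nuclei, against 49.9, 56.2 and 34.8 CPM on the plates, at least 72.1-fold lower. AT1G53541, with 5.16, 22.5 and 52.2 CPM on the plates, was at least 40.9-fold lower, or 21.2-fold without plate 3. AT3G06895, with 10.9, 21.1 and 41.8 CPM, was at least 37.7-fold lower, or 24.5-fold without plate 3, and AT1G40104 at least 38.0-fold lower. AT3G06895 overlaps U4.2 on the opposite strand, and since the strand setting of the counting was not given in the sources used here, its counts cannot be assigned to it with certainty. The others were uncharacterized genes. MEE27, which encodes a jumonji-family protein of the kind that demethylates histones, had 15.2 CPM in the 10x library (70 counts), against 3527, 4254 and 4184 CPM (log2 ratio −8.25 ± 0.39, SE, edgeR adjusted p = 4.15e-06).

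AT4G39235 had 3.69 CPM in the 10x library, against 968, 1383 and 1549 CPM (log2 ratio −8.66), and AT3G63052 had 0.868 CPM, against 281, 271 and 378 CPM (log2 ratio −8.61). AT2G31141, PRIN2 and AT3G43850 completed the 10 lowest, with log2 ratios of −7.49, −7.21 and −7.10. MEE27, AT4G39235 and AT2G31141 held no copy of an snRNA or snoRNA by the search, which did not cover the opposite strand. Of the 20 lowest protein-coding genes 3 did, beside 86 of the 18195 genes searched in all classes.

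The protein-coding genes with the largest ratios were seen well in the 10x library and almost not on the plates. AT1G61255 had 41.7 CPM in the 10x library (192 counts in 142 nuclei), against 0, 0.702 and 0 CPM, and AT3G62540, a pentatricopeptide repeat protein gene, had 67.3 CPM (310 counts in 245 nuclei), against 0, 2.11 and 0 CPM. MT1B, a metallothionein that binds metal ions, had 49.5 CPM (228 counts in 178 nuclei), against 1.15, 1.40 and 0.870 CPM (log2 ratio 5.15 ± 0.44, SE, edgeR adjusted p = 4.62e-05). These 3 genes were counted in many nuclei. AT2G02720, AT2G16018, AT2G30766 and AT1G35242 were also among the 10 largest ratios, with 31.3 to 41.0 CPM in the 10x library and at most 4 counts over the plates.

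Others were confined to few nuclei. AT1G63295, a remorin family gene, had 350 counts in 30 10x nuclei (76.0 CPM), against 0, 1.40 and 0.870 CPM on the plates. RIC4, an effector of ROP GTPases, had 190 counts in 32 nuclei (41.2 CPM), against 0, 0 and 2.61 CPM, and HMT3, a homocysteine S-methyltransferase of methionine synthesis, had 183 counts in 36 nuclei (39.7 CPM), against 1.15, 0 and 0.870 CPM. With so few nuclei behind them, the share of a cell type among the nuclei and the method cannot be told apart for these genes. The same holds for genes chosen after their values were seen: NAC101 (VND6), a switch of vessel formation, had 164 counts in 41 nuclei (35.6 CPM), against 0.573, 0 and 2.61 CPM, and LDOX, an enzyme of anthocyanin synthesis, had 426 counts in 48 nuclei (92.5 CPM), against 0.573, 1.40 and 12.2 CPM.

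Levels of cell type markers moved with the method as well. The 22 published marker lists of 20 genes each came from leaf veins, root tips and cortex. For 19 of them the summed level in the 10x library lay above all 3 plates, and for 0 below. Of all tested genes, 77.1% lay outside the range of the plates, above or below. List sums are CPM without TMM scaling, and protein-coding genes as a whole had 1.17-fold the mean plate share in the 10x library. The root xylem list summed to 443 CPM in the 10x library, against 111, 124 and 105 CPM, and a leaf phloem parenchyma list (PP2) to 2410 CPM, against 797, 626 and 553 CPM. The lists of companion cells, root phloem and 1 cortex list (T6) overlapped between the methods. At most 10 genes of a list, those of root trichoblasts, were at 0 counts in the 10x nuclei, and at most 3 on the plates. In nuclei with more than 2500 counts, 17 lists lay above all plates and 2 below: companion cells, with 311 CPM in the 10x library, against 384, 604 and 378 CPM, and root phloem, with 223 CPM, against 280, 390 and 276 CPM. As sums over nuclei, fewer nuclei of a type and less RNA per nucleus cannot be told apart, and the part of these shifts in the gene ratios was not tested.

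Gene groups that a histone, housekeeping or tissue study would use differed in size. Of 35 tested histone genes, of 38 in the list, 12 were higher in the 10x library and 0 lower, with a median log2 ratio of 1.05, beside 14.5% higher and 12.2% lower among all genes. Among all tested protein-coding genes of 500 to under 1000 bases, 39.9% were higher and 3.16% lower, with a median of 1.24. At 1000 to under 2000 bases these values were 25.9%, 4.10% and 0.57. Histone genes were not compared with genes of like length. AT3G27360, a histone H3 gene, had the largest ratio, with 15.0 CPM in the 10x library, against 2.87, 2.11 and 0.870 CPM (log2 ratio 2.63 ± 0.69, SE, edgeR adjusted p = 0.0145). Plant histone mRNAs are polyadenylated. Among H4 genes, 3 of 8 were higher, and AT1G07820 had 79.9 CPM in the 10x library, against 23.5, 11.2 and 17.4 CPM. For HTA8, leaving out plate 1, and for H2AXA, leaving out plate 2, ended the call, with log2 ratios of 1.51 and 0.96.

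Of 7 reference genes for normalisation, 2 were lower and 0 higher, with a median log2 ratio of −0.61, beside 12.2% lower and 14.5% higher among all genes. PP2AA3, a subunit of protein phosphatase 2A, had 20.4 CPM in the 10x library, against 47.0, 54.8 and 45.3 CPM (log2 ratio −1.48), and PEX4 had 44.9 CPM, against 25.2, 23.2 and 17.4 CPM (log2 ratio 0.80, under 2-fold). AT5G60390, the other gene called lower, lost its call without TMM scaling (log2 ratio −0.82). The cambium regulators went in both directions. WOX4, a homeobox gene that keeps the cambium dividing, had 341 CPM in the 10x library, against 72.2, 119 and 109 CPM (log2 ratio 1.56 ± 0.25, SE, edgeR adjusted p = 0.00131). PXY, the receptor kinase upstream of it, had 122 CPM in the 10x library, against 270, 296 and 205 CPM (log2 ratio −1.28 ± 0.24, SE, edgeR adjusted p = 0.00288). The remaining 3 of 5 cambium genes were not called. Of 10 tested nuclear genes of photosynthesis, 1 was higher (RBCS3B, log2 ratio 1.54), near the 14.5% of all genes, and the median was 0.08.

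Across tested protein-coding genes of 500 bases and over, the ratio fell with the length of the gene. The median log2 ratio was 1.22 for 53 genes under 500 bases, 1.24 for 696 genes of 500 to under 1000 bases, 0.57 for 4804 genes of 1000 to under 2000 bases, −0.06 for 8958 genes of 2000 to under 4000 bases and −0.56 for 2952 genes of 4000 bases and over. Among genes of 500 to under 1000 bases 39.9% of genes were higher in the 10x library and 3.16% lower, and among those of 4000 bases and over 3.39% were higher and 25.9% lower. Genes of 4000 bases and over took 23.9% of the protein-coding counts of the 10x library, against 33.5%, 33.5% and 33.4% on the plates. All 1237 genes under 500 bases, of which 53 were tested, were lower in the 10x library when summed. They took 0.214% of its protein-coding counts, against 1.17%, 1.03% and 1.14% on the plates, so the median of the tested genes does not stand for this bin. Genes are not independent replicates, and these medians are descriptions.

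Introns and internal runs of A were examined because both methods counted unspliced RNA and oligo(dT) can anneal to a run of A inside a gene. Within genes of 2000 to under 4000 bases, the median log2 ratio was −0.81 for 613 genes with no intron, −0.07 for those with 1 to 4, 0.05 with 5 to 9 and −0.07 with 10 and over. In the same length bin the median was −0.12 for 7586 genes without a run of 10 or more A on the sense strand, 0.30 with 1 run and 0.59 with 2 runs. The step with A runs was also present in genes of 4000 bases and over, from −0.63 without a run to 0.73 for 29 genes with 3 runs and over.

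**Figure D4:**
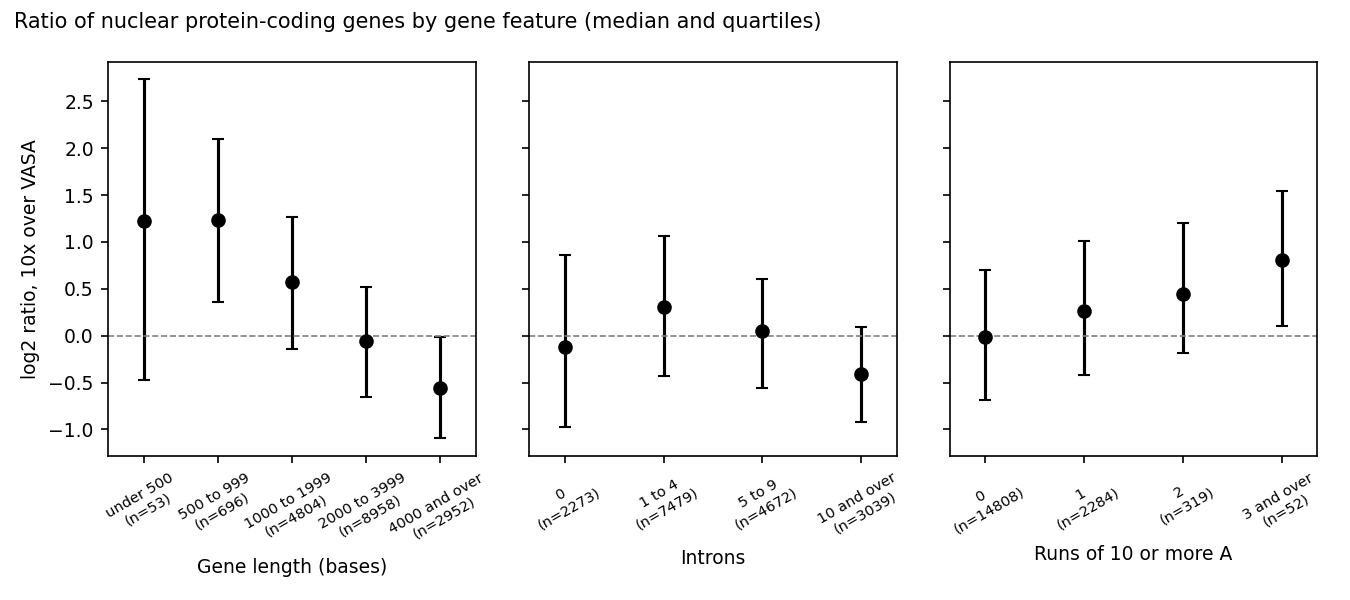
Median (point) and quartiles (bars) of the log2 ratio of the 10x all hypocotyl library over the VASA all hypocotyl plates, for nuclear protein-coding genes by gene length, number of introns and number of runs of 10 or more A on the sense strand. The medians fall with length from 1.24 at 500 to under 1000 bases to −0.56 at 4000 bases and over, and increase with A runs.

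Seen by only 1 method were few genes. With at least 10 counts in the 10x nuclei and 0 on all plates, 69 genes were seen only by 10x, 0.349% of the 19763 rows with that many 10x counts. With at least 10 counts over the plates, a count on every plate and 0 in the 10x nuclei, 131 genes were seen only on the plates, 0.686% of 19110 rows. By class, plate-only rows were 9 of 37 snRNA rows that met the plate minimum (24.3%), 42 of 220 pseudogenes (19.1%), 11 of 147 snoRNA rows (7.48%), 24 of 438 lncRNA rows (5.48%) and 40 protein-coding genes (0.223%). The shares of snRNA, pseudogene, snoRNA and lncRNA rows all stood above the 0.686% of all rows. Without plate 1 the counts were 154 genes seen only by 10x and 78 only on plates, without plate 2 they were 180 and 63, so these lists depended on depth.

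Of the 131 plate-only genes, 130 had counts on the VASA cambium plates, which were not used to choose them. Among the 126 that the WT and d14 count tables cover, 46 had a count in the nuclei of those 10x libraries, and 95 of the 131 had a count somewhere among all barcodes of the 10x all hypocotyl library. The 5 with most counts were U2.6, AT5G07745, U4.7, AT1G04527 and U4.5. The snoRNAs AT2G06855 and AT1G06667 followed in their class, with 88.8, 58.3 and 158 CPM and with 42.4, 42.1 and 77.5 CPM on plates 1, 2 and 3.

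Of the 69 genes seen only by 10x, 43 were protein-coding, 11 pseudogenes, 7 lncRNAs and 4 transcribed pseudogenes, and the rest were U6.11p, MIR169a, AT1G05813 and the tRNA-Pro gene AT1G45238. On the VASA cambium plates 50 of the 69 genes had a count, so those 50 were not beyond the reach of VASA-seq. AT5G26805, annotated as a B3 domain protein, had 72 counts in 72 nuclei (15.6 CPM, at least 22.5-fold higher, or 13.4-fold without plate 1), and the lncRNA AT3G02395 had 57 counts in 57 nuclei (12.4 CPM, at least 17.8-fold higher, or 10.6-fold without plate 1). AT3G16070 had 50 counts in 13 nuclei. The first pair had 1 count in each nucleus, and AT3G16070 had several.

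The tRNA-Pro gene AT1G45238 (chr1:17158531-17158602, plus strand) is shown as the only tRNA in this list. It had 28 counts in 28 nuclei of the 10x library and 0 on all 6 VASA plates, with 4 counts in each of the WT and d14 libraries, and it holds no run of 4 or more A.
AT1G45238: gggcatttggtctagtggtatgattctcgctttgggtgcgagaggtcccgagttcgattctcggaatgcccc

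Among pseudogenes, 28 of 165 tested rows were higher and 39 lower in the 10x library, beside 14.5% and 12.2% of all genes. Without TMM the balance turned to 34 higher and 29 lower. AT3G28865 had 8.03 CPM in the 10x library, against 1441, 1107 and 2781 CPM (log2 ratio −8.02). This 1 row made up a large part of the gap in the class share, 0.507% of 10x counts, against 0.708%, 0.792% and 0.825% on the plates. AT4G06477 had 0 counts in the 10x nuclei, against 81.4, 147 and 101 CPM, at least 169-fold lower. AT5G35416 stood the other way, with 56.4 CPM in the 10x library (260 counts in 247 nuclei), against 0.573, 0 and 0 CPM. Among transcribed pseudogenes, AT1G11482 had 3.26 CPM in the 10x library, against 186, 166 and 203 CPM (log2 ratio −6.02), and AT4G21730 had 189 CPM, against 6.88, 19.7 and 11.3 CPM (log2 ratio 3.72). The groups did not overlap for any of the 5, but these were picked for their ratios, and 77.1% of all tested genes lay outside the range of the plates.

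Rows of the organelle genomes are given by their identifiers. Of 36 mitochondrial rows tested, 20 were lower and 0 higher, beside 12.2% lower and 14.5% higher among all genes. ATMG01390 alone had 193 CPM in the 10x library, against 10884, 7877 and 6931 CPM (log2 ratio −5.69 ± 0.40, SE, edgeR adjusted p = 1.81e-05). This 1 row thus made up a large part of the mitochondrial shares of 2.30%, 1.80% and 1.69% on the plates. Of 83 chloroplast rows, 35 were lower and 14 higher, and over all 10x barcodes 37 of 86 were higher and 17 lower, so the direction of this class turned. ATCG00950 had 1.09 CPM in the 10x library, against 67.6, 86.4 and 114 CPM, and ATCG00220 had 117 CPM, against 13.8, 16.1 and 6.09 CPM (log2 ratio 3.04). Rows of 1 organelle thus differed in both directions.

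The other libraries of the series gave a test over more libraries, with the 3 10x libraries (all hypocotyl, WT and d14) against the 6 VASA plates, over nuclear genes counted in all of them. The WT and d14 plants were 19 days old, d14 lacks the strigolactone receptor, and both were counted with Cell Ranger, so that age, genotype and software cannot be told apart from the method. Protein-coding genes took 94.8% ± 0.929 of counts in the 10x libraries (SD, n = 3), against 83.7% ± 2.79 on the VASA plates (SD, n = 6). For snRNA the means were 0.00919% in the 10x libraries and 4.46% on the VASA plates, and for snoRNA 0.0354% in the 10x libraries and 4.61% on the plates. For rRNA they were 0.428% in the 10x libraries and 1.49% on the plates, and for pseudogenes 0.482% and 0.780%. In these 5 classes the groups did not overlap. The p was 0.0238 in an exact two-sided permutation test, the smallest p the design allows, and 0.0381 after adjustment over 8 classes. The rRNA result leaves out AT3G06355, counted here as lncRNA. It had 61656, 44178 and 59156 counts in the 10x all hypocotyl, WT and d14 nuclei, which held 4607519, 1696318 and 2080343 counts in all. On the 6 VASA plates it had 7609 to 13626 CPM. The test was not repeated with this row as rRNA, and the part of AT3G28865 in the pseudogene difference was not tested. The 6 plates came from 2 preparations, and over the 5 preparations of both methods the smallest two-sided exact p would be 0.2, so the p-values above are too small if plates of 1 preparation are alike. For tRNA and lncRNA the adjusted p was 0.109 by the same exact test, and for other ncRNA 0.238.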

How the data were processed

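Nuclei were isolated from hypocotyls and sequenced by 10x Chromium 3′ chemistry with molecular identifiers or by VASA-seq in 384-well plates. The authors deposited count matrices of uniquely assigned reads per gene and barcode or well, with introns included. Per the labels, STAR 2.7.8a and TAIR10 were used. The annotation version and strand setting were not given in the sources used here. Reads shared by overlapping or identical genes are lost, which can empty rows of small RNAs. WT and d14 were counted with Cell Ranger 6.0.1, whose gene list lacks organelle, mature miRNA, transcribed pseudogene and transgene rows, and its 325 pri-miRNA rows were at 0 in every barcode and were treated as missing.

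From the deposited counts, barcodes with more than 1200 and fewer than 10000 counts (10x all hypocotyl) or wells with more than 1200 and fewer than 15000 counts (VASA) were summed per library. The study's further removal of nuclei by fluorescence was not applied, and doublets were not called. In WT and d14 nuclei needed more than 1500 counts. Of the barcodes that passed, 1 was shared between 10x all hypocotyl and WT. Classes and sequences came from RefSeq (TAIR10.1), matched by locus for 37390 of 38115 rows (98.1%). Genes that passed filterByExpr were tested with edgeR 4.0.16 in R 4.3.3 (TMM, glmQLFit, glmQLFTest), with Benjamini-Hochberg adjustment, and the code was tested on simulated data. DESeq2 1.42.0 and other settings are given in the closing section. Copies were searched on the sense strand only with blastn 2.17.0 (e-value 1e-5). Where a method was at 0, folds are bounds against 3 counts, and leaving out plates from these bounds was added after seeing the data. With 1 to 3 counts, ratios have exact 95% counting intervals. Intervals cover counting error only.

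Genes were named by rule. Among called genes with at least 20 CPM in the higher method, these were the 10 nuclear protein-coding genes with the largest and the 10 with the smallest ratio, and 3 each way in every other class. Among genes seen by 1 method, they were the 5 with most counts each way and 3 per non-coding class. In each gene list, they were the largest and the smallest ratio. A few of the sequences of these genes are printed. The members and gene lists were chosen with earlier results of these data known.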

Additional observations from a re-analysis of the deposited data

How the results depend on the processing

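With 1 library against 3 plates of 1 preparation, the comparison cannot separate the method from the preparation. No paired analysis was possible because the 10x all hypocotyl group holds a single library, which shares fewer than 2 replicate numbers with the plates. Of 4927 genes called, 2677 higher and 2250 lower in the 10x library, DESeq2 gave 3225, with 1437 higher and 1788 lower, so that 44.6% instead of 54.3% of calls were higher, and a 4-fold minimum gave 1521 (868 higher and 653 lower). Leaving out each plate in turn gave 4399 to 5285 calls, 2389 to 2892 of them higher and 2010 to 2411 lower. Over the plate leave-outs, DESeq2, other scalings, no filter, other nuclei limits, thinning and the WT library in place of the 10x all hypocotyl library, no snoRNA row was higher in the 10x library, 129 to 137 were lower, and 28 to 33 snRNA rows were lower.

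Counts of genes seen by 1 method moved most. Those seen only by 10x numbered 167 with a minimum of 5 counts, 12 with 30 counts, 298 when up to 2 counts were allowed in the other method, 352 over all 10x barcodes, 25 in nuclei of more than 2500 counts, and 100 to 180 without 1 plate. Those seen only on plates numbered 400, 30, 380, 36 and 277 in the same order of settings, and 63 to 97 without 1 plate. Taking all 10x barcodes moved the log2 ratio of class shares to −7.71 for snRNA, −2.25 for rRNA, −3.01 for pri-miRNA, 0.23 for other ncRNA, −2.39 for mitochondrial genes and 0.52 for chloroplast genes, the last on the other side of 0. The cause was not tested.

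Without the d14 library, chosen after seeing the data, the differences over libraries were 11.5 percentage points for protein-coding genes, −4.45 for snRNA, −4.57 for snoRNA, −1.16 for rRNA and −0.291 for pseudogenes, where 0.0714 is the smallest exact p. AT3G06355 was again counted as lncRNA. The difference in median log2 ratio between genes under 1000 bases and genes of 4000 bases and over, 1.80, was 1.82 to 1.92 without 1 plate.

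For 116 called genes among those named or in the gene lists, 1183 of 1229 alternative values kept the call, 42 lost it (14 with DESeq2 and 14 with the WT library in place of the 10x all hypocotyl library), and 4 changed sign. With the WT library in its place, log2 ratios were −0.17 for GUT15, −0.13 for TAS3, −0.010 for HTA7 and −0.39 for VND7, all on the other side of 0, and 1.82 for RBCS1B, which was not called before and changed sign too.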

Other observations

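The VASA cambium plates, which are outside the comparison, held shares of snRNA between 2.73% and 5.24% and of snoRNA between 2.64% and 5.71%. Mitochondrial genes took 16.8%, 14.9% and 6.35% of the counts of the blank wells on VASA all hypocotyl plates 1, 2 and 3, and 0.182% of the counts of 10x barcodes with 1 to 100 counts. For the chloroplast genes, these shares were 0.778%, 0.319% and 0.383% in the blank wells and 0.334% in the barcodes.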
